A study of Mus musculus with 8 samples.

Results

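The cornified envelope and barrier lipid genes encode the proteins, enzymes and lipid-handling factors of the outermost layer of the epidermis. The genes followed here were 24 named genes and every late cornified envelope gene (symbols beginning with Lce and a digit), provided that the deposited value reached at least 10 in at least 2 libraries. All 24 named genes and 19 Lce genes were present and met that floor, so 43 of the 24612 genes in the table were members. They were compared in skin RNA from 2 PBS, 3 bleomycin and 3 celastrol libraries, all from male C57BL/6 J mice ordered at 4 weeks of age and treated from 6 weeks. Total RNA came from skin homogenate, with a sampling time of 21 days for every group. PBS mice received 0.1 mL of phosphate-buffered saline under the skin. Bleomycin mice received 0.1 units of bleomycin, a DNA-damaging drug used to produce dermal fibrosis in mice, by the same route. Celastrol mice received celastrol, a plant triterpenoid, into the peritoneum each day at 1 or 2 mg/kg. Neither the dose given to a particular celastrol mouse nor any added bleomycin is stated, and the route differs from that of both other groups. The effects of agent, dose and route therefore cannot be told apart wherever celastrol is compared. The labels number the replicates but do not say that each is a separate mouse, so p-values measure the spread between these libraries.

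Keratinocytes leaving the spinous layer fill with keratohyalin granules, whose main protein, profilaggrin, is cut into filaggrin that bundles keratin filaments and is later broken down into the moisturising factors of the skin surface. Loricrin, involucrin, repetin, hornerin and the Lce proteins are joined beneath the plasma membrane by transglutaminases to form the cornified envelope. Ceramides with very long acyl chains are made, oxidised and attached to this envelope as the waterproof lipid layer, and corneodesmosomes hold the dead cells together until kallikrein proteases cut them. Most of the envelope genes lie together in the epidermal differentiation complex, and 27 of the 43 members lay within 1.32 Mb of chromosome 3 (92080271 to 93399442, mm10 build).

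The promoters of the genes on which the results turn are shown so that the members of the complex can be compared by sequence. Each is the 250 bases before the RefSeq start of the gene on the gene's own strand (GRCm38.p6, 5′ to 3′). Capitals mark matches on either strand to the AP-1 motif TGANTCA, the TATA box TATAAA, the CEBP motif TTGCNNAA or the grainyhead motif AACCNGTT.
Flg, chr3:93273296-93273545, plus strand: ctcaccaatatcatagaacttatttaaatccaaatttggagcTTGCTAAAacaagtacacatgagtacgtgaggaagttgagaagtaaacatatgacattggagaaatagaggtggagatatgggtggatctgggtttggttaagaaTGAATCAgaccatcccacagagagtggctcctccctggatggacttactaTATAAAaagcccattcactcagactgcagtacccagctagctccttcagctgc
Rptn, chr3:93393449-93393698, plus strand: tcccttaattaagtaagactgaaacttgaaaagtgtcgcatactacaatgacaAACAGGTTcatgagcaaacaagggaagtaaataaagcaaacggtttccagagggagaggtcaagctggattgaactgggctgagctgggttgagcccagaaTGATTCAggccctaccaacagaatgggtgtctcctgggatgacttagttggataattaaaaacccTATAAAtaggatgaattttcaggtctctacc
Ivl, chr3:92573736-92573985, minus strand: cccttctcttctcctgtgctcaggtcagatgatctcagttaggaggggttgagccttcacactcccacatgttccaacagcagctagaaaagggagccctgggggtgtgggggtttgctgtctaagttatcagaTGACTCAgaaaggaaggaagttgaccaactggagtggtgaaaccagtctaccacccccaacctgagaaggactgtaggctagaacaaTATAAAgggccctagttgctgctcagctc
Lor, chr3:92083143-92083392, minus strand: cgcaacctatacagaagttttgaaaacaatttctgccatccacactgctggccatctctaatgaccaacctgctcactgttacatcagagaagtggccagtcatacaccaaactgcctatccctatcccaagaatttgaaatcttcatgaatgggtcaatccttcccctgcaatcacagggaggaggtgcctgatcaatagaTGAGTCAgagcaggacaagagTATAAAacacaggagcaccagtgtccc
Lce1g, chr3:92752339-92752588, minus strand: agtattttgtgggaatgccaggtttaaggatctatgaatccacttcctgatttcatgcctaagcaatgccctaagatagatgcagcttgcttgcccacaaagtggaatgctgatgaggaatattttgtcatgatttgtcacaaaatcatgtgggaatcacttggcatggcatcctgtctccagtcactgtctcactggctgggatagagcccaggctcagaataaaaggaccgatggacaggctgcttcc
Casp14, chr10:78718294-78718543, minus strand: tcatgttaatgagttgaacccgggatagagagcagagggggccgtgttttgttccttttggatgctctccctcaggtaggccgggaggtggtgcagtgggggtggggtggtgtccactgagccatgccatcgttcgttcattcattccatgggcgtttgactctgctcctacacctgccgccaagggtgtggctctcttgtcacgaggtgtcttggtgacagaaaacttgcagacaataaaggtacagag

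The AP-1 match lay 103 bases before the start in Flg, 96 in Rptn, 116 in Ivl and 48 in Lor, and each of these promoters also held a TATA box match, at 53, 31, 29 and 27 bases. Lce1g and Casp14 held no match to the 4 motifs in this window. RefSeq promoters were matched for 36 members. AP-1 matches were present in 5 of them (13.9%), all of them envelope genes (Flg, Flg2, Ivl, Lor and Rptn), and in 0 of the 18 Lce promoters, against 6.75% of all 32851 promoters of the same length. TATA box matches were present in 10 of 36 (27.8%) against 12.4%, CEBP matches in 6 (16.7%) against 9.56%, and grainyhead matches in 1 (2.78%) against 1.79%. A match describes letters in a window and is not a measured binding site.

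Values are the authors' normalized values, on a linear scale that is comparable between libraries, and are given in the order PBS 2, PBS 3, then Bleomycin 2, 3 and 4, then Celastrol 2, 3 and 5. Estimated depth ran from 14900000 to 37100000 reads, and library sums from 22900000 to 26400000. Celastrol 2 stood apart on the first principal component of all genes (32.7% of the variance), at 237.5 against -57.3 to -3.63 for the other libraries. PBS 2 and Bleomycin 2 stood apart in GC-rich genes. In the fifth of genes with the highest GC content (median 56.7%) the median log2 deviation from the gene mean was 0.581 and 0.583 in those libraries, and -0.259 to 0.0807 in the others. Since members are on median 54.7% GC, the bleomycin change of Flg is also given without PBS 2 and Bleomycin 2. That omission leaves PBS 3 as the only PBS library. Flg, Casp14 and Ivl, the markers of the cornified layer, were detected in all 8 libraries, and summed to 0.0230% to 0.0377% of the library in PBS, 0.0778% to 0.0919% in bleomycin and 0.115% to 0.127% in celastrol. Flg was the largest part of this sum in every library, so the sum mainly restates Flg and does not speak for the other members.

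Against PBS, few members changed, and those that did were higher. Flg rose in bleomycin skin, and Flg, Casp14 and Lce1g rose in celastrol skin. No member fell in any comparison. Changes are given as log2 changes with the standard error (SE) of a limma fit over 23185 genes, and a gene passed where its Benjamini-Hochberg adjusted p was under 0.05. In bleomycin against PBS, 1 member of 43 was higher and 0 were lower, against 0.453% and 0.224% of all genes tested (0.677% in either direction). In celastrol against PBS, 3 were higher and 0 were lower, against 0.824% and 0.543% (1.37% in either direction). In celastrol against bleomycin 0 members passed in limma, as did 0% of all genes, and the smallest adjusted p of a member was 0.975. In that comparison 8 members had an unadjusted p under 0.05, all of them higher, against 1.38% of all genes higher and 2.49% lower (3.87% in either direction).

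Beyond the threshold, most members had positive log2 changes. Of 43, 32 were above 0 in bleomycin against PBS, with a median of 0.30, against 49.9% of all genes above 0 and 50.1% below, with a median of -0.00. In celastrol against bleomycin 39 were above 0 with a median of 0.42, against 46.3% and 53.7% of all genes and a median of -0.04. In celastrol against PBS 35 were above 0 with a median of 0.70, against 45.6% and 54.4% and a median of -0.07. Rescaling every library to the same sum moved the all-gene median to -0.16 in celastrol against bleomycin and to -0.17 in celastrol against PBS, and 34 members were then above 0 in each. Each pair of these comparisons shares a group, so the counts are not independent of each other. PBS 3 decided much of the bleomycin median, with 21 members above 0 and a median of -0.09 without it. The median was 0.53 without PBS 2 and 0.08 without Bleomycin 3. In celastrol against bleomycin the median was 0.24 without Bleomycin 4 and 0.27 without Celastrol 5.

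The libraries of a group could be ranked against each other for every member. Bleomycin libraries lay wholly above PBS for 6 members and wholly below for 3, against 12% and 11.6% of all genes, which is close to the background. Celastrol libraries lay wholly above PBS for 20 members and wholly below for 2 (Flg2 and Elovl4), against 13.2% and 13.7%. They lay wholly above bleomycin for 5 members (Flg, Ivl, Casp14, Pnpla1 and Lce1g) and wholly below for 0, against 4.13% and 4.59%. At an unadjusted p under 0.05, bleomycin against PBS held 5 higher members and 1 lower, against 3.62% and 3.2% (6.82% in either direction), and celastrol against PBS held 18 and 2, against 6.13% and 5.91% (12% in either direction). Celastrol 5 was the highest library for 21 members and PBS 3 the lowest for 19. The shares of all genes for these counts were not computed, so they cannot be read as particular to the members. The summed value of all 43 was 1.66% and 1.82% of the library in PBS, 1.50%, 2.20% and 1.56% in bleomycin and 1.90%, 1.94% and 1.99% in celastrol, so the bleomycin range covered both other groups. Per kilobase of exon, the mean level of Elovl4 was 21790 in PBS, 9970 in bleomycin and 10440 in celastrol. That of Klk7 was 14630, 22100 and 30040, and that of Dsg1a was 14210, 12730 and 14000, so Elovl4 was the highest of these in PBS and the lowest in both treated groups.

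**Figure D1:**
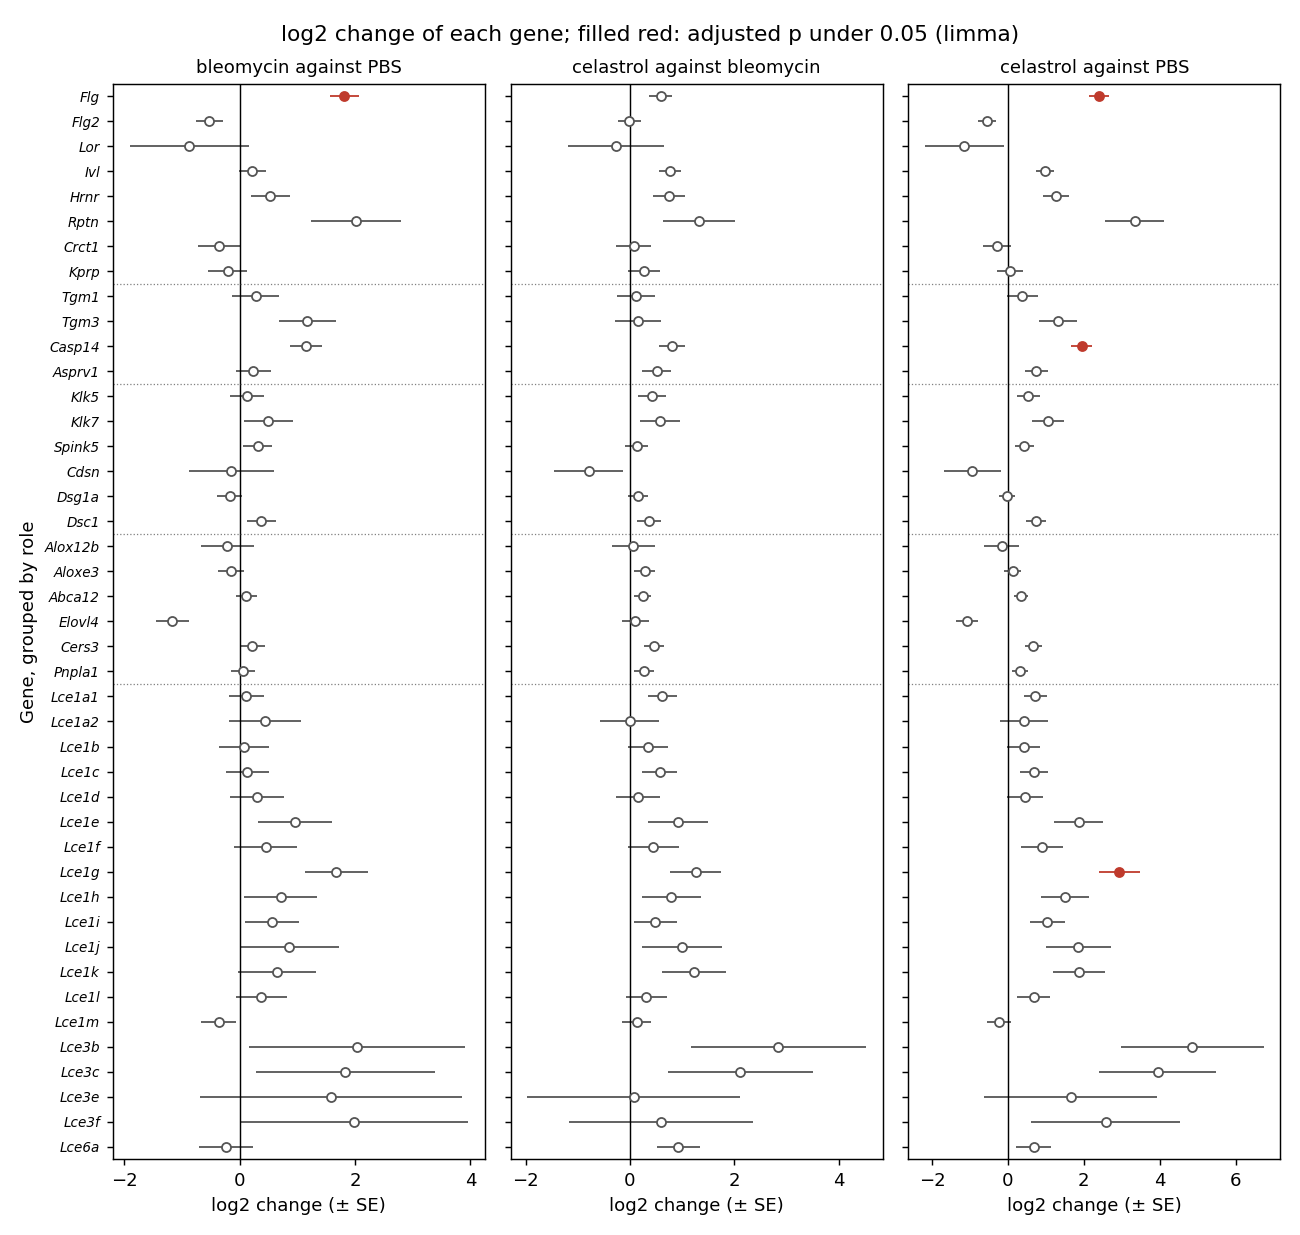
log2 change (± SE, limma) of each of the 43 genes, in rows grouped by role, in bleomycin against PBS, celastrol against bleomycin and celastrol against PBS. Filled red points passed at an adjusted p under 0.05: Flg at left, none in the middle, and Flg, Casp14 and Lce1g at right, while the Lce3 genes have the widest error bars.

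**Figure D2:**
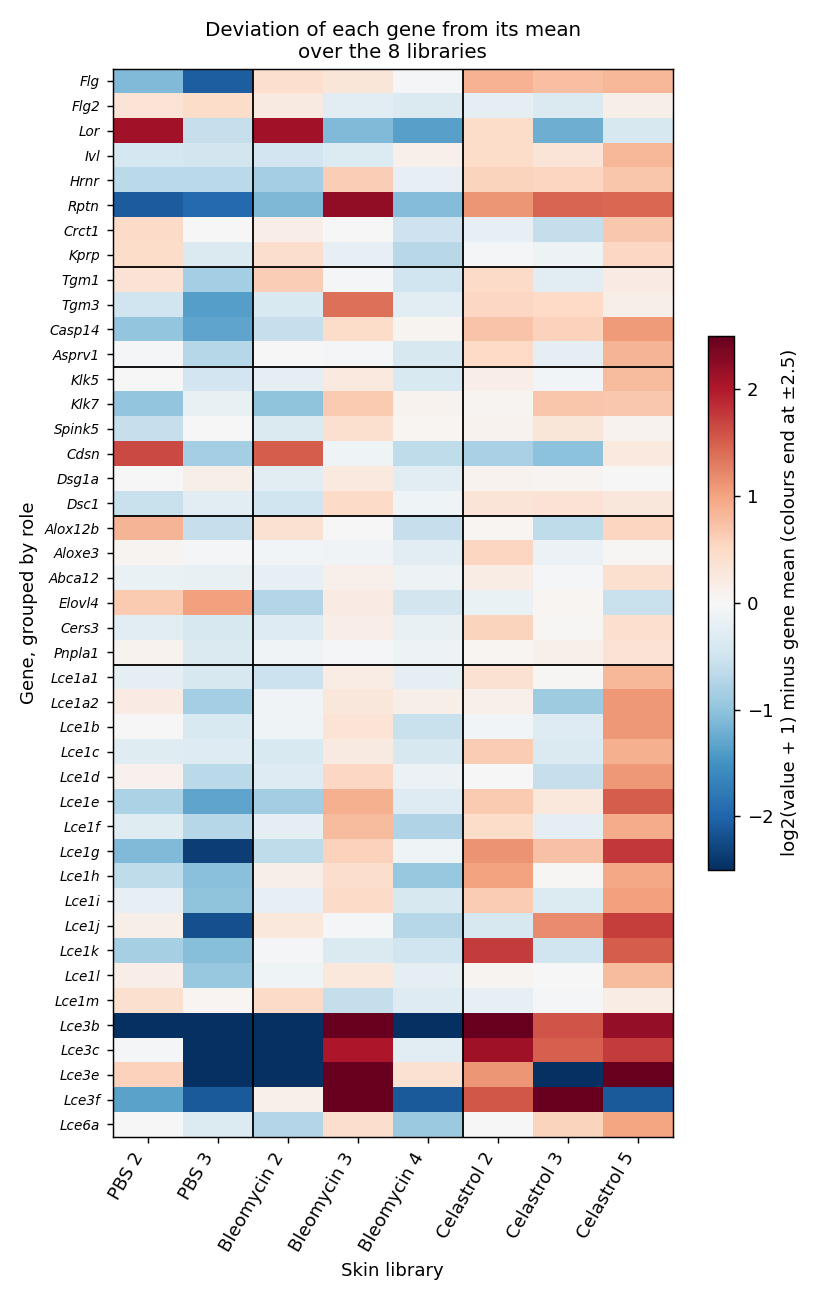
Deviation of log2(value + 1) from the gene's mean over the 8 libraries, with genes in rows by role and libraries in columns by group. Flg and Casp14 are below their mean in both PBS libraries, Lor and Cdsn are high in PBS 2 and Bleomycin 2, and most Lce genes are highest in Celastrol 5.

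Among the envelope and keratohyalin proteins, Flg, which encodes profilaggrin, had the lowest adjusted p of any member in both comparisons with PBS. Its gene has 2 exons at chr3:93273523-93293686 on the plus strand. Its values were 6016 and 3109 in PBS, 17369, 15969 and 12692 in bleomycin, and 23659, 21760 and 23111 in celastrol. The 3 groups did not overlap, and PBS 3 was the lowest library. The means were 4563 ± 2056 (SD, n = 2), 15343 ± 2401 (n = 3) and 22843 ± 978 (n = 3), so bleomycin was 3.36-fold and celastrol 5.01-fold above PBS. Flg rose by 1.81 ± 0.25 in bleomycin (limma adjusted p = 0.0144) and by 2.40 ± 0.25 in celastrol (adjusted p = 0.00379) on the log2 scale. Celastrol against bleomycin was 0.59 ± 0.23 and did not pass (adjusted p = 0.975). The celastrol call was kept on leaving out each library in turn, with changes of 1.92 to 2.88 and adjusted p of 0.000313 to 0.0414. The bleomycin call was lost without PBS 3 (1.34, adjusted p = 0.0895), without Bleomycin 3 (1.78, adjusted p = 0.0608), without Bleomycin 4 (1.94, adjusted p = 0.0563), and with only the bleomycin and PBS libraries in the fit (adjusted p = 0.0691). Without both PBS 2 and Bleomycin 2 the bleomycin change was 2.19, with PBS 3, the lowest library, alone in PBS. The Flg transcript repeats itself, with 79.2% of its 50-base windows found more than once within it, and the authors' handling of reads that fit several places is not given in the sources used here.

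Skin homogenate mixes epidermis with dermis, gland and muscle, so in all of these values fewer cells of a type and less RNA per cell cannot be told apart. Krt10, the keratin of the spinous layer beneath, gives a level within the epidermis, though its values were split by library. They were 186490 in PBS 2 and 166015 in Bleomycin 2, the libraries with the higher GC-rich signal, and 37107 to 80035 in the others. As a ratio to Krt10, Flg was 0.0323 and 0.0676 in PBS, 0.105, 0.298 and 0.342 in bleomycin and 0.305, 0.466 and 0.289 in celastrol. Every treated library thus lay above both PBS libraries, as on the plain scale, while bleomycin and celastrol overlapped. The same ratio for Casp14 was 0.0103 and 0.0332 in PBS, 0.0155, 0.0981 and 0.109 in bleomycin and 0.0812, 0.122 and 0.100 in celastrol. Bleomycin 2 thus lay within the PBS range, whereas on the plain scale its Casp14 value (2577) lay above both PBS values (1922 and 1527).

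Flg2 encodes a filaggrin-related S100 fused protein and lies next to Flg. Its values were 101357 and 109332 in PBS, 93653, 66744 and 62324 in bleomycin and 68722, 62156 and 88883 in celastrol, and every treated library was below both PBS libraries. The differences of -0.53 ± 0.24 and -0.54 ± 0.24 did not pass (adjusted p = 0.735 and 0.403). Within each library, the ratio of Flg to Flg2 was 0.0594 and 0.0284 in PBS, 0.185, 0.239 and 0.204 in bleomycin, and 0.344, 0.350 and 0.260 in celastrol. This ratio shows that the neighbouring genes moved unequally, and the 3 groups did not overlap in it. Per kilobase of exon, the mean level of Flg was 242 in PBS, 815 in bleomycin and 1213 in celastrol, and that of Flg2 was 5064, 3569 and 3521, so Flg2 stayed the higher of the pair throughout.

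Rptn and Hrnr, neighbours of Flg that encode the S100 fused proteins repetin and hornerin, were highest in celastrol on average but did not pass. Rptn (chr3:93393699-93399442, plus strand) had values of 1619 and 1797 in PBS, 3171, 31985 and 3258 in bleomycin, and 14798, 18957 and 18609 in celastrol. Bleomycin 3 was the highest library of all and the other bleomycin libraries lay between PBS and celastrol, so the bleomycin mean rests on 1 library. Its log2 change was 2.02 ± 0.78 in bleomycin against PBS (adjusted p = 0.561), 1.33 ± 0.69 in celastrol against bleomycin (adjusted p = 0.975) and 3.35 ± 0.78 in celastrol against PBS (adjusted p = 0.0732). Without Bleomycin 3, Rptn passed in celastrol against bleomycin (2.43, adjusted p = 0.00304) and in celastrol against PBS (adjusted p = 0.000177), and without Bleomycin 2 it passed in the latter (adjusted p = 0.0347). It also passed there with a pseudocount of 10 (adjusted p = 0.0462), with only the celastrol and PBS libraries in the fit (adjusted p = 0.00122) and after a GC correction (adjusted p = 0.0451), which was chosen with the data in view and took out each library's trend with GC content. Hrnr had values of 31592 and 31760 in PBS, 27914, 78016 and 43993 in bleomycin and 74810, 73703 and 81486 in celastrol. Celastrol lay above PBS in all libraries, and Bleomycin 3 lay within the celastrol range. The change of 1.27 ± 0.34 in celastrol against PBS did not pass (adjusted p = 0.124), but it did without Bleomycin 2 (adjusted p = 0.0230), without Bleomycin 3 (adjusted p = 0.0288) or with only the celastrol and PBS libraries in the fit (adjusted p = 0.0330).

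Involucrin, the early envelope scaffold encoded by Ivl (chr3:92570902-92573735, minus strand), separated celastrol from both other groups. Its values were 881 and 873 in PBS, 857, 943 and 1310 in bleomycin, and 1656, 1503 and 2124 in celastrol. The log2 change was 0.99 ± 0.24 in celastrol against PBS (adjusted p = 0.0818) and 0.77 ± 0.21 in celastrol against bleomycin (adjusted p = 0.975), and neither passed. After the GC correction the former passed (1.01, adjusted p = 0.0474).

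Loricrin, the most abundant envelope protein of mature cornified cells, was split by library rather than by group. The values of Lor (chr3:92080271-92083142, minus strand) were 998 and 157 in PBS, 1001, 108 and 90.4 in bleomycin, and 322, 99.5 and 178 in celastrol. PBS 2 and Bleomycin 2, the libraries with the higher GC-rich signal, were the highest, and Lor has a GC content of 68.3%. Its log2 change was -0.88 ± 1.03 in bleomycin and -1.14 ± 1.03 in celastrol against PBS (adjusted p = 1 and 0.727). Leaving out a library moved the former between -2.21 and 0.45 and the latter between -2.47 and 0.19, so no direction is given. Crct1 and Kprp, which encode proline- and cysteine-rich proteins of the upper epidermis, ranged from 477 to 1158 and from 2493 to 5809 with overlapping groups, and did not pass.

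**Figure D3:**
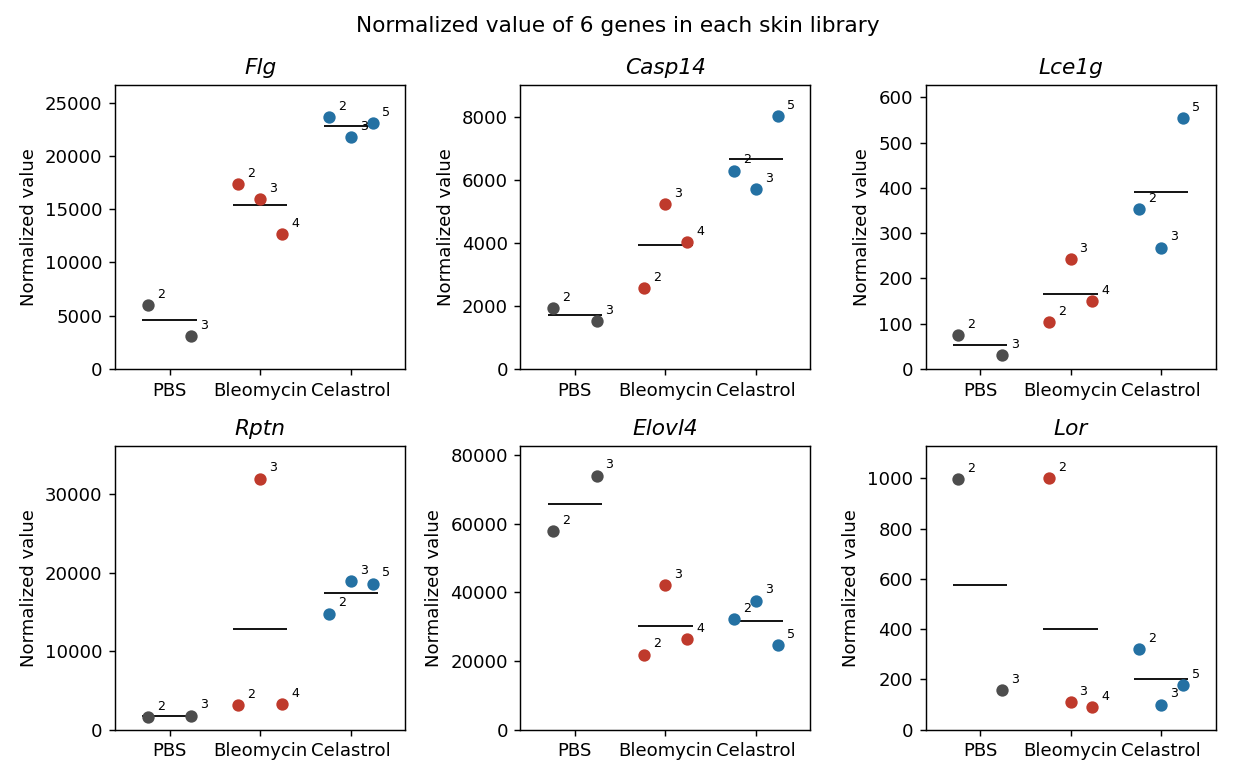
Normalized value (linear axis from 0) in each library of Flg, Casp14, Lce1g, Rptn, Elovl4 and Lor, with points labelled by replicate number and a line at the group mean. Flg, Casp14 and Lce1g do not overlap between groups, Rptn is highest in Bleomycin 3, Elovl4 is lower in all 6 treated libraries than in both PBS libraries, and Lor is high in PBS 2 and Bleomycin 2.

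The 4 crosslinking and processing enzymes had positive log2 changes throughout, with medians of 0.71 in bleomycin against PBS, 0.33 in celastrol against bleomycin and 1.03 in celastrol against PBS, and 1 of the 4 passed. That gene was Casp14 (chr10:78711991-78718294, minus strand), which encodes the keratinocyte caspase that takes part in the breakdown of filaggrin. Its values were 1922 and 1527 in PBS, 2577, 5251 and 4039 in bleomycin, and 6308, 5709 and 8041 in celastrol. No 2 groups overlapped, and Bleomycin 2 was the bleomycin library nearest to PBS. Casp14 rose by 1.95 ± 0.28 in celastrol against PBS (adjusted p = 0.0107). The call was lost without PBS 3 (1.78, adjusted p = 0.0932) and without Celastrol 5 (1.81, adjusted p = 0.0751), and was kept without each of the other 6 libraries. In bleomycin against PBS the difference of 1.15 ± 0.28 did not pass (adjusted p = 0.122), though it did without Bleomycin 2 (1.43, adjusted p = 0.0181).

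Tgm3 and Tgm1 encode transglutaminases that crosslink envelope proteins. Tgm3 had values of 335 and 183 in PBS, 363, 1227 and 392 in bleomycin and 679, 667 and 528 in celastrol, and both treated groups lay above PBS. Its changes against PBS of 1.17 ± 0.49 in bleomycin and 1.32 ± 0.49 in celastrol did not pass (adjusted p = 0.642 and 0.293). As with Rptn, Bleomycin 3 was the highest library. Tgm1 overlapped between all groups, between 532 and 1477. Asprv1, the protease that trims profilaggrin in mice, had values of 6745 and 4194 in PBS, 6943, 6769 and 5226 in bleomycin and 9741, 5908 and 12315 in celastrol. Celastrol 2 and Celastrol 5 were its highest libraries, Celastrol 3 lay within the PBS range, and no comparison passed.

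The 19 Lce genes encode small cysteine-rich proteins that are added late to the envelope. Their median log2 change was 0.56 in bleomycin against PBS, 0.60 in celastrol against bleomycin and 1.04 in celastrol against PBS, with 17, 18 and 18 of 19 above 0. In celastrol against PBS 1 of the 19 passed, and 9 had all celastrol libraries above PBS, against 0.824% and 13.2% of all genes. Lce1g (chr3:92750148-92752338, minus strand, 2 exons) had values of 74.4 and 30.9 in PBS, 104, 242 and 149 in bleomycin, and 353, 268 and 555 in celastrol. Groups did not overlap, with PBS 3 the lowest and Celastrol 5 the highest library. Lce1g rose by 2.94 ± 0.54 in celastrol against PBS (adjusted p = 0.0297). That call was lost without PBS 3 (2.32, adjusted p = 0.226), Bleomycin 4 (2.94, adjusted p = 0.0581), Celastrol 2 (2.98, adjusted p = 0.0716) or Celastrol 5 (2.65, adjusted p = 0.120), and with only the celastrol and PBS libraries in the fit (adjusted p = 0.0726). In 18.4% of its 50-base windows the Lce1g transcript is identical to another gene, most often Lce1j, so the division of reads between them is uncertain.

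None of the other Lce genes passed. Lce1e had values of 57.4 and 39.7 in PBS, 54.3, 187 and 80.1 in bleomycin and 159, 120 and 289 in celastrol, and Lce1k had 55.9 and 47.4, then 97.9, 77.6 and 70.5, then 340, 70.9 and 288. In celastrol against PBS their changes were 1.87 ± 0.64 (adjusted p = 0.253) and 1.87 ± 0.68 (adjusted p = 0.283), and Lce1k passed without Celastrol 3 (2.58, adjusted p = 0.0411). Lce1a1 reached 704, 546 and 959 in celastrol, above the PBS values of 457 and 409, with bleomycin at 368, 614 and 452. Lce6a, at 258, 376 and 511 in celastrol, overlapped the bleomycin values of 154, 349 and 134 and was above both PBS values, 256 and 203. Lce1m was the exception in celastrol against PBS, with a change of -0.23 ± 0.31. The genes Lce1a2, Lce1b, Lce1c, Lce1d, Lce1f, Lce1h, Lce1i, Lce1j and Lce1l lay between 14.3 and 950, had changes of 0.42 to 1.86 in celastrol against PBS and did not pass.

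The Lce3 genes, whose human counterparts are induced after barrier damage, were at the edge of detection. Lce3b was at 0 in both PBS libraries, at 0, 66.7 and 0 in bleomycin, and at 49.2, 16.9 and 26.5 in celastrol. It met the floor for testing only through treated libraries. Against a floor of 3 reads per PBS library, the celastrol mean was at least 11.4-fold higher, and no fold is given for bleomycin, where Bleomycin 3 alone was above 0. Lce3c had values of 18.1 and 0 in PBS, 1.87, 78.4 and 15.4 in bleomycin and 83.7, 54.0 and 64.5 in celastrol, all celastrol libraries being above PBS. Lce3e was at or near 0 in 1 library of every group. Lce3f held 1 read in all in PBS, and a library at 0 in bleomycin and in celastrol, and met the floor only through treated libraries. None of the 4 passed in any comparison. Floors cover counting error only. Of the 50-base windows of Lce3f, Lce3e and Lce3c, 48.0%, 43.7% and 35.7% are shared with other genes, and 17 of the 43 members share over 10% of their windows with another gene.

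The members on chromosome 3 were also read in their order along the complex. Median changes of the 27 members on chromosome 3 were 0.45 in bleomycin against PBS, 0.59 in celastrol against bleomycin and 0.99 in celastrol against PBS, and those of the 16 members elsewhere were 0.17, 0.25 and 0.41. The difference between these gene groups was not tested. Lor at the left end, Crct1, Lce1m and Flg2 next to Flg had log2 changes below 0 in both comparisons with PBS, and none of them passed. Kprp and Lce6a were below 0 in bleomycin only. The sign for Lor changed on leaving out a library, so no direction is given for it. Lce1g, Flg and Rptn had changes of 2.94, 2.40 and 3.35 in celastrol against PBS, of which that of Rptn did not pass.

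**Figure D4:**
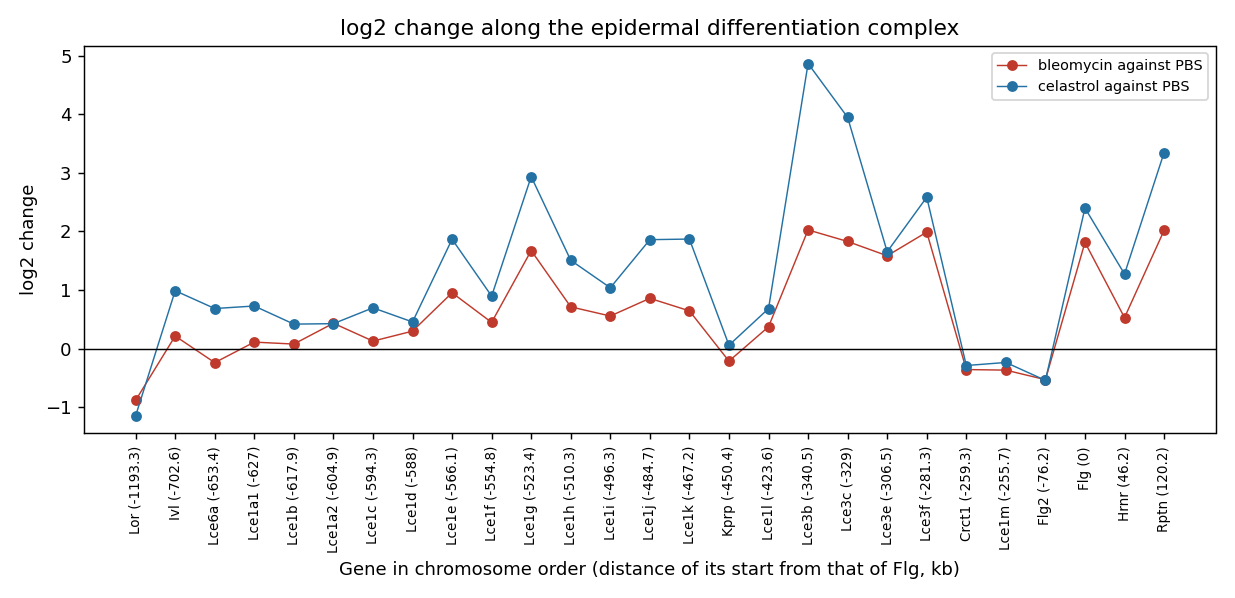
log2 change against PBS of the 27 genes on chromosome 3 in chromosome order, with the distance of each start from that of Flg in kb, for bleomycin (red) and celastrol (blue). Both series share the PBS libraries, and both are lowest at Lor and Flg2. The celastrol series peaks at Lce3b, Lce3c and Rptn, which did not pass, with Lce1g at 2.94 and Flg at 2.40. No error bars are drawn. The Lce3b and Lce3c changes (4.86 ± 1.88 and 3.95 ± 1.55, SE) rest on PBS values at the edge of detection.

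The 6 genes of desquamation, the shedding of surface cells, did not pass in any comparison, with medians of 0.22, 0.26 and 0.49. Klk7 and Klk5, which encode the kallikreins that cut corneodesmosomes, were at 41713, 65187 and 63901 and at 1433, 1220 and 2213 in celastrol. Klk7 had PBS values of 20254 and 35178 and bleomycin values of 19843, 63194 and 42600, with a change of 1.06 ± 0.43 in celastrol against PBS (adjusted p = 0.347). Klk5 had PBS values of 1266 and 917 and bleomycin values of 1082, 1520 and 979, so its groups overlapped. Spink5, which encodes the kallikrein inhibitor LEKTI, had 22659 and 34133 in PBS, 26205, 44729 and 34880 in bleomycin and 35852, 41641 and 35747 in celastrol.

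Dsc1, the desmosomal cadherin of the upper epidermis, had values of 20221 and 24437 in PBS, 20968, 41584 and 27537 in bleomycin and 37429, 38127 and 36212 in celastrol. Celastrol lay above PBS in all libraries with a change of 0.74 ± 0.25 (adjusted p = 0.251), which did not pass. Dsg1a, its desmoglein partner, overlapped between all groups, between 62660 and 90351, and shares 35.0% of its windows with Dsg1b. Cdsn, which encodes corneodesmosin, had values of 2821 and 494 in PBS, 2563, 829 and 575 in bleomycin and 509, 435 and 1062 in celastrol. PBS 2 and Bleomycin 2 were again the highest libraries, and its GC content is 57.4%.

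The 6 barrier lipid genes had medians of -0.05 in bleomycin against PBS, 0.25 in celastrol against bleomycin and 0.22 in celastrol against PBS, and none passed. Elovl4, the elongase that makes the very long acyl chains of ceramides (chr9:83778692-83806277, minus strand), was the member furthest below PBS in bleomycin. Its values were 57787 and 74065 in PBS, 21892, 42132 and 26484 in bleomycin, and 32348, 37646 and 24766 in celastrol. All 6 treated libraries lay below both PBS libraries, and bleomycin and celastrol overlapped. The changes of -1.17 ± 0.28 in bleomycin and -1.07 ± 0.28 in celastrol did not pass (adjusted p = 0.121 and 0.124). After the GC correction both passed (adjusted p = 0.0304 and 0.0288). All 8 sebaceous gland markers, Elovl4 not among them, had log2 changes below 0 in both comparisons with PBS, against 50.1% and 54.4% of all genes. Of the 8, 2 fell in bleomycin and 2 in celastrol, against 0.224% and 0.543% of all genes. The 8 markers summed to 0.333% to 0.448% of the library in PBS, 0.152% to 0.245% in bleomycin and 0.169% to 0.500% in celastrol. Celastrol 5, the highest in this sum, lay above both PBS libraries. The part of gland content in the Elovl4 values was not tested.

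Cers3, the synthase of ceramides with very long chains, had values of 1725 and 1564 in PBS, 1653, 2334 and 1815 in bleomycin and 3059, 2121 and 2781 in celastrol, with a change of 0.67 ± 0.22 in celastrol against PBS (adjusted p = 0.213). Pnpla1, which makes the linoleate esters of these ceramides, had 1069 and 778, then 938, 977 and 919, then 1037, 1095 and 1280. Celastrol lay above bleomycin in all libraries and overlapped PBS. Abca12, the lamellar granule lipid transporter, had 18600 and 18316 in PBS, 18190, 22822 and 19142 in bleomycin and 23712, 20258 and 27406 in celastrol. All celastrol libraries were above PBS, and the difference of 0.36 ± 0.18 did not pass (adjusted p = 0.488). Alox12b and Aloxe3, the lipoxygenases that oxidise ceramides for attachment to the envelope, did not pass. Alox12b ranged from 398 to 1116 with overlapping groups. Aloxe3 had 1442 and 1323 in PBS, 1315, 1302 and 1135 in bleomycin and 1994, 1238 and 1410 in celastrol, so bleomycin lay wholly below PBS, by a log2 change of -0.15, and celastrol overlapped both.

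Within groups, members followed GC content in PBS 2. Over the 43 members the correlation of GC content with the log2 difference of PBS 2 from PBS 3 was 0.527 (Spearman 0.58), and over all genes 0.33. That of GC content with the difference of Bleomycin 2 from the other bleomycin libraries was 0.285, and over all genes 0.321. These are descriptions across genes, which are not independent, in libraries that differ in depth. Of the 43, 8 were higher in both PBS 2 and Bleomycin 2 than in PBS 3, Bleomycin 3 and Bleomycin 4: Lor, Crct1, Kprp, Tgm1, Cdsn, Alox12b, Lce1j and Lce1m. The share of all genes in that order was not computed, so the count cannot be read as particular to the members. Flg, at 63.6% GC, is GC-rich as well, and Casp14 and Lce1g are not, at 47.3% and 49.7%. Of the 3 genes called in celastrol against PBS, all 3 passed under the GC correction. Without PBS 2 and Bleomycin 2, PBS 3 alone remains in PBS. It was the lowest library for all 3, so that fit cannot show whether the calls hold.

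**Figure D5:**
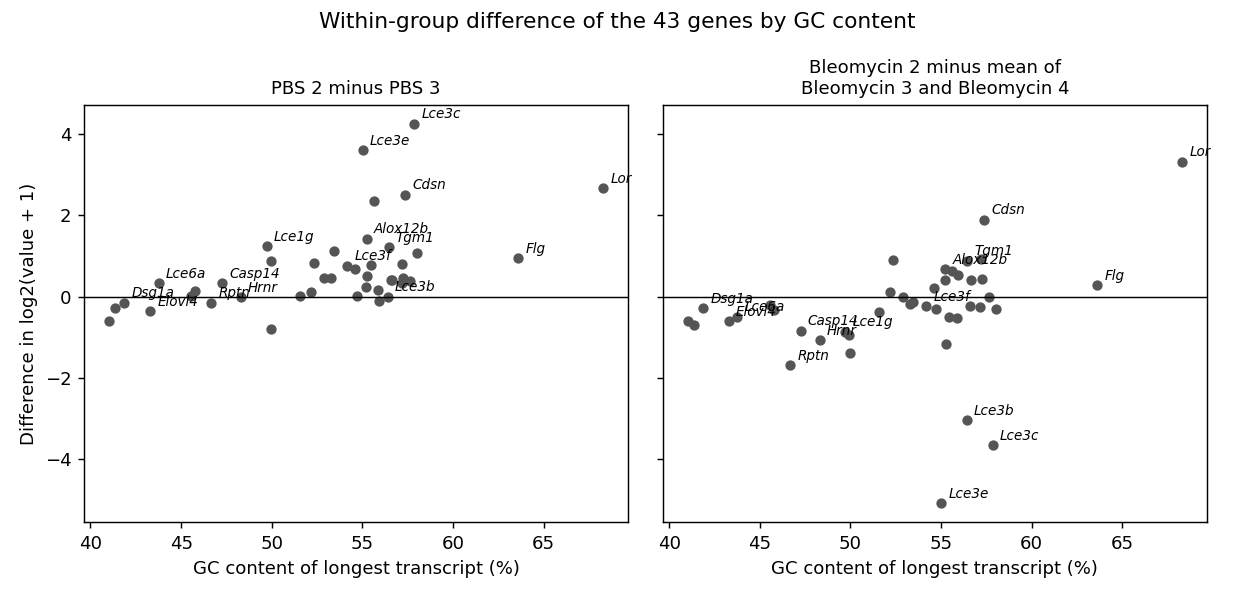
Difference in log2(value + 1) against GC content of the longest transcript (%) for the 43 genes, for PBS 2 minus PBS 3 at left and Bleomycin 2 minus the mean of Bleomycin 3 and Bleomycin 4 at right. Lor and Cdsn are high in both panels, Rptn is low at right, and the Lce3 genes scatter most.

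Wider lists of the same pathways, drawn up with earlier results of these data known, are given for comparison. Of 35 further envelope and keratohyalin genes tested, 1 passed, in celastrol against PBS, against 0.824% of all genes higher there and 0.543% lower. It was Calm4, a calmodulin-like gene of the epidermis, with values of 9568 and 8002 in PBS, 10565, 18711 and 12751 in bleomycin and 21415, 17867 and 24128 in celastrol, which rose by 1.26 ± 0.24 (adjusted p = 0.0345). Of 34 desquamation proteases and inhibitors, 1 rose in each comparison with PBS, against 0.453% and 0.824% of all genes higher. That gene was Tmprss11d, which encodes a transmembrane serine protease and met the floor for testing only through treated libraries. Tmprss11d was at 0 in both PBS libraries, at 25.4, 149 and 33.6 in bleomycin and at 147, 120 and 102 in celastrol (adjusted p = 0.0307 and 0.00985). Of 50 further barrier lipid genes, 34 had a log2 change below 0 in bleomycin against PBS (median -0.24), 17 lay wholly below PBS and 4 wholly above, against 50.1% of all genes below 0, 11.6% wholly below and 12% wholly above. In celastrol against PBS 29 were below 0 (median -0.12), against 54.4% of all genes. There 15 lay wholly below PBS and 9 wholly above, against 13.7% and 13.2%. In each of these comparisons 0 of the 50 rose and 1 fell, against 0.224% and 0.543% of all genes lower: Cers5, a ceramide synthase of shorter chain preference, at 3192 and 2604 in PBS, 1201, 1188 and 798 in bleomycin and 1198, 936 and 661 in celastrol. Cers5 fell by 1.46 ± 0.28 (adjusted p = 0.0493) and by 1.67 ± 0.28 (adjusted p = 0.0196). Of 28 cell junction genes and 52 regulators of epidermal differentiation, 0 passed. In celastrol against bleomycin 0 genes of these lists passed.

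Markers of other layers and cell types also differed between the groups. Over all genes, 0.453% rose and 0.224% fell in bleomycin against PBS, and 0.824% and 0.543% in celastrol against PBS. Among the markers of wound or stressed epidermis, at least Sprr2a1, Sprr2d, S100a8 and S100a9 met the floor for testing only through treated libraries. The counts of passing wound markers therefore include genes let in by the groups where they were high. The wound markers were higher, with 2 of 10 passing in bleomycin (Sprr2a1 and S100a8) and 5 of 10 in celastrol against PBS. They summed to 0.00918% to 0.0399% of the library in PBS, 0.0800%, 0.647% and 0.114% in Bleomycin 2, 3 and 4, and 0.198% to 0.400% in celastrol, and 3 of them were at 0 in PBS 3. Bleomycin 3, highest in this sum, was also the highest library for Rptn and Tgm3, and a link between these was not tested. Dermal fibroblast markers were lower, with 5 of 7 falling in bleomycin and 6 of 7 in celastrol, at 1.44% to 3.23% of the library in PBS, 0.124% to 0.446% in bleomycin and 0.105% to 0.290% in celastrol. Skeletal muscle markers were higher, with 1 of 7 (Myh1) rising in bleomycin and 3 in celastrol, at 0.314% to 0.375%, 0.392% to 0.611% and 0.697% to 0.865%. Spinous markers did not pass (0 of 5), with medians of -0.08 in bleomycin and -0.02 in celastrol against PBS and sums of 0.745% to 1.56%, 0.675% to 1.41% and 0.828% to 1.07%. The basal layer (0 of 6), blood and myeloid cells (0 of 6), and hair shaft and inner root sheath (0 of the 5 tested of 15 listed) also had no marker past the threshold in limma. The part of these marker shifts in the changes of Flg, Casp14 and Lce1g was not tested.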

How the data were processed

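Skin RNA from 8 mouse libraries was compared between 2 PBS, 3 bleomycin and 3 celastrol replicates. The deposited table holds 1 normalized signal per gene and library: estimated gene counts that the authors divided by library size factors (poscounts, as the table's own name says). Named by the submitters' processing notes are the mm10 build, DESeq2, STAR 2.7.3a and Partek 10.0.22. The counter, its annotation, its use of strand and its treatment of multiply mapping reads are not given in the sources used here. Since the values are not counts, no count test was run. The library kit is a total RNA kit, per the labels' protocols.

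Values plus a pseudocount of 1 were taken to log2 and tested with limma (version 3.58.1, R 4.3.3; linear fit and empirical Bayes with an intensity trend), with all 8 libraries in a single fit and no covariate. Tests were two-sided. Genes at 10 or more in at least 2 libraries were tested, 23185 of 24612. P-values were Benjamini-Hochberg adjusted over all of them, with a threshold of 0.05. A log2 change of a low gene is understated by the pseudocount. Depth was estimated from the value of 1 read in each library.

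Members, lists, groups of roles and alternatives were chosen with earlier results of these data known. Values in every library were given for members past the threshold, for the 2 members with the smallest unadjusted p of each role in bleomycin against PBS and in celastrol against bleomycin, for Flg, Lor, Ivl and Casp14, and for other members named after their values were seen. The GC correction and the omission of PBS 2 with Bleomycin 2 were added after the data had been seen. Genes were matched to GENCODE M21 for exons, GC content and shared 50-base windows, with the start and strand equal and the end within 1 base for all 43 members. Promoters are from RefSeq (GRCm38.p6). The fit was also checked on simulated data.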

Additional observations from a re-analysis of the deposited data

How the results depend on the processing

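Counts of members past the threshold were compared under 18 alternatives. Of these, the higher count in bleomycin against PBS (1) was 0 with only the 2 groups compared in the fit. It was 2 with library weights and 0 to 2 on leaving out 1 library. The lower count (0) was 1, Elovl4, with library weights and with the GC correction. In celastrol against bleomycin the higher count (0) was 0 to 1 on leaving out 1 library, the call being Rptn without Bleomycin 3. In celastrol against PBS the higher count (3) was 5 with the GC correction (Ivl and Rptn gained), 4 with a pseudocount of 10 (Rptn gained), 4 with only the 2 groups in the fit (Hrnr and Rptn gained, Lce1g lost) and 1 to 5 on leaving out 1 library, and the lower count (0) was 1, Elovl4, with quantile normalization and with the GC correction. Median member log2 changes were -0.092 to 0.53, 0.24 to 0.62 and 0.47 to 0.92 on leaving out 1 library, for bleomycin against PBS, celastrol against bleomycin and celastrol against PBS, and the first had the other sign without PBS replicate 3 (-0.092). The cause of these shifts was not tested.

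The labels do not say whether the replicate numbers pair the libraries. Same-numbered libraries correlated between -0.00485 and 0.203 in their deviations, highest for PBS 2 with Bleomycin 2. The deviations are from group means, so those of the 2 PBS libraries mirror each other. The correlations therefore cannot show whether the numbers pair the libraries. With the number as a replicate block, 0 members were higher in bleomycin against PBS and 1, Flg, in celastrol against PBS. Over all genes, the count in bleomycin against PBS (157) was 46 with only those 2 groups in the fit, 711 with library weights, 290 with the GC correction and 17 with the block, and the count in celastrol against PBS (317) was 159 with the 2 groups, 531 with the GC correction and 41 with the block. With 2 PBS libraries, the reads behind the Lce3 genes and the spread within PBS limit what could be detected.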
